A study of Homo sapiens with 6 samples.

Results

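The dual-specificity phosphatases DUSP1, DUSP4, DUSP5, DUSP6, DUSP10 and DUSP16, the Sprouty proteins SPRY2 and SPRY4, and the Sprouty-related proteins SPRED1 and SPRED2 were followed in TT cells, an established human medullary thyroid cancer line. These 10 genes were taken by symbol from the chip annotation, with older symbols included. They were named for 15 of the 47317 probes with values. Of these, 13 probes for 9 genes were detected and tested, among 18876 tested probes and 11388 genes in all. The 2 probes left out both belonged to DUSP4. A probe was named here for 20045 genes.

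Growth factor receptors activate RAS, which starts a chain of kinases from RAF through MEK to the MAP kinase ERK. Parallel chains end in the stress-activated MAP kinases p38 and JNK. The genes followed here act as brakes on these chains, and several of them are themselves induced by ERK signaling, so that they form negative feedback loops. Dual-specificity phosphatases remove phosphates from the MAP kinases, whereas Sprouty and SPRED proteins act upstream, between the receptor and RAF. In medullary thyroid cancer these chains commonly run downstream of the receptor tyrosine kinase RET, and TT cells carry an activating RET mutation.

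Cells were left untreated, treated with 10 µM Y15 or treated with 10 µM PF-04554878, 2 arrays in each of the 3 groups. Both compounds are inhibitors of focal adhesion kinase, and the treatment lasted a day according to the study's methods. The solvent was PBS for Y15 and DMSO for PF-04554878, and none was named for the untreated cells, so a solvent and its compound cannot be told apart. The labels number 2 replicates in each group and do not name separate plates, and the methods describe duplicate plates of 1 cell line, so p-values measure only the spread between these arrays.

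Net of background, the mean intensity was 421 and 353 for untreated cells, 169 and 180 under Y15 and 252 and 242 under PF-04554878, and 15215 to 18488 probes were detected per array. The part of this difference in the member values was not tested other than by the scalings named below. The methods describe a set amount of total RNA per labeling, so the intensity of an array does not measure the number of cells on a plate. For a single transcript, fewer cells with that RNA and less of it per cell cannot be told apart. Of 14 C cell and neuroendocrine markers, 13 had a named probe, all 13 were kept and 12 were detected on all 6 arrays. Their summed level was 46133 and 48021 in untreated cells, 38208 and 38418 under Y15 and 47240 and 47515 under PF-04554878. No marker of thyroid follicular cells (6 named) or of endothelium (6) was kept, and 1 of 7 of fibroblasts was. Of 7 named immune markers 2 were kept, CD68 and CD14. The summed immune marker level takes 1 probe for each of the 7 named genes, those not kept included, so part of it is background. It was 894 and 949 in untreated cells, 1462 and 1388 under Y15 and 1253 and 1223 under PF-04554878, while the pan-leukocyte gene PTPRC was not kept. Whether this rise bears on the member values was not tested.

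Levels are given below as log2 intensity after quantile normalization, in the order replicate 1 and replicate 2. A change is a difference of group means on that log2 scale, with its 95% confidence interval from a limma fit to all 6 arrays. A probe passed at a Benjamini-Hochberg adjusted p below 0.05 over all tested probes and a change of at least 1.2-fold. A gene with several probes is represented by its brightest.

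Under Y15, DUSP1, DUSP5 and DUSP16 were up-regulated, DUSP10 was detected in that group alone, and DUSP6, SPRY4, SPRED1 and SPRED2 were down-regulated. DUSP10 was kept for testing through the 2 Y15 arrays alone, the group where it was high, so it had to differ. It is left out of the counts below unless named as included. Of the other 8 members 7 passed, 3 higher and 4 lower, where 38.1% of all genes passed, 16.7% higher and 21.4% lower. Under PF-04554878, SPRY4 and SPRED2 were up-regulated and DUSP1, DUSP5, DUSP6 and SPRED1 were down-regulated. These were 6 of 8, 2 higher and 4 lower, where 62.2% of all genes passed, 27.2% higher and 35.0% lower, so the share of members was close to that of all genes. Between the compounds, DUSP1, DUSP5, DUSP16 and SPRED1 were higher and SPRY4 and SPRED2 lower under Y15 than under PF-04554878. Without DUSP10 these were 6 of 8, 4 higher and 2 lower, with 60.6% of all genes passing, 32.9% higher and 27.6% lower. Scaling moved the splits against untreated cells, given here over 9 members with DUSP10 included. Under Y15 the split was 4 higher and 4 lower with quantile normalization and after background correction (38.1% and 37.7% of all genes passing). It was also 4 and 4 with median scaling over the tested probes (63.8%). With each array scaled to its median over all probes, 2 members were higher and 5 lower under Y15. Of all genes 386 were then higher and 9050 lower (82.9% passing). Under PF-04554878 that scaling gave 2 members higher and 6 lower, where 935 of all genes were higher and 7538 lower (74.4%). The split there was 2 and 4 with quantile normalization and after background correction (62.2% and 64.5%). Median scaling over the tested probes gave 3 and 3 (73.6%), with DUSP10, not detected in either group, among the higher ones. Between the compounds the split was 5 higher and 2 lower of 9 under all 4 scalings, with DUSP10, which had to differ, among the higher ones. Of all genes 60.6% passed there with quantile normalization and 61.8% after background correction. With median scaling 49% passed over all probes and 53.5% over the tested probes.

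**Figure D1:**
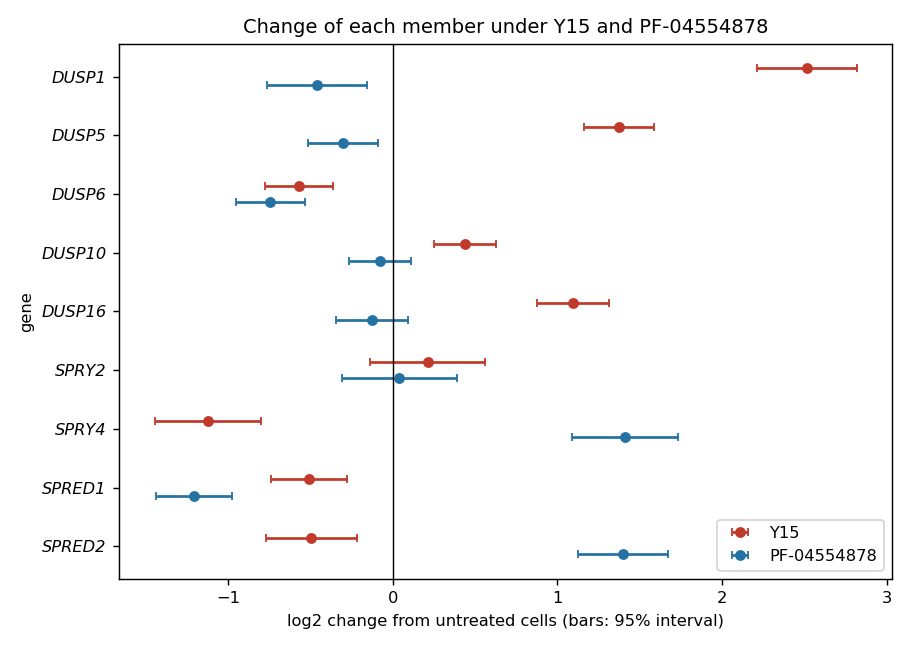
Change of each of the 9 tested members from untreated cells, on the log2 scale, under Y15 and under PF-04554878, with 95% confidence intervals from the limma fit. DUSP1 lies at 2.52 under Y15 and -0.46 under PF-04554878, and SPRY4 at -1.12 and 1.41.

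Leaving out DUSP10, the arrays of the 2 groups did not overlap for 8 of 8 members under Y15 (73.7% of all genes), for 7 under PF-04554878 (82.9%) and for 7 between the compounds (82.1%). The exception in both cases was SPRY2. The median change of these 8 members was -0.14 under Y15, -0.21 under PF-04554878 and 0.43 for Y15 against PF-04554878, beside -0.05, -0.07 and 0.05 over all genes. With DUSP10 the member median under Y15 was 0.21, so its sign rested on that gene. The 2 comparisons with untreated cells share the untreated arrays. DUSP1 and DUSP5 passed as higher under Y15 and lower under PF-04554878, as did 3.17% of all genes. SPRY4 and SPRED2 passed in the reverse pattern, as did 2.85%, and DUSP6 and SPRED1 were lower under both compounds, as were 12.7%.

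The sequences before the transcription start are shown for 2 members raised by Y15, DUSP1 and DUSP16, and for the 2 raised by PF-04554878, SPRY4 and SPRED2, so that members moving together can be set side by side. No sequence was available for DUSP5, which Y15 also raised. Each stretch is 250 bases of RefSeq sequence in GRCh38.p14, read 5′ to 3′ on the minus strand and ending at the base before the start. The stretches lie at chr5:172771196-172771445 for DUSP1, chr12:12562864-12563113 for DUSP16, chr5:142324248-142324497 for SPRY4 and chr2:65432600-65432849 for SPRED2. Capitals mark the cAMP response element (CRE, TGACGTCA) and its core TGACG on either strand.
DUSP1: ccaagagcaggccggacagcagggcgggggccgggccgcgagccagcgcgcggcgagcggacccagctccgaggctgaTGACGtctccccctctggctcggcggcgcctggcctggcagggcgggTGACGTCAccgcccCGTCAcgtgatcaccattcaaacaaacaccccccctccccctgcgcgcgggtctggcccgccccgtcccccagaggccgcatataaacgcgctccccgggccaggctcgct
DUSP16: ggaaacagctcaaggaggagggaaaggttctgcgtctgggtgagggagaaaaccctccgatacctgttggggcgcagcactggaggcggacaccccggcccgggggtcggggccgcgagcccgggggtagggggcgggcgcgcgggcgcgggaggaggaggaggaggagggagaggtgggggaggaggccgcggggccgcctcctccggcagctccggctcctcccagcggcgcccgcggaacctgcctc
SPRY4: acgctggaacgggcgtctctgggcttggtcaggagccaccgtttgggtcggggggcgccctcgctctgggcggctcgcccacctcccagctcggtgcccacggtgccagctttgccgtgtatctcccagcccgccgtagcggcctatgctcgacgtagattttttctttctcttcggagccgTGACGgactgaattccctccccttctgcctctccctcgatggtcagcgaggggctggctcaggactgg
SPRED2: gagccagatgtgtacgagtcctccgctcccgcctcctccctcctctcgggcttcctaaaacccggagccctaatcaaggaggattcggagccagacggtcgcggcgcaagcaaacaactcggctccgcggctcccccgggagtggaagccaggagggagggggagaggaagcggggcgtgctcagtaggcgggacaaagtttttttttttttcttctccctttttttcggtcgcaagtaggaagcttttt

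Windows of 300 bases, which add the first 50 transcribed bases, were searched on both strands for 8 members. DUSP4 and DUSP5 had no window and were not searched. The CRE was present in the window of DUSP1 alone among the 8, at position -125 counted from the start site, and in 1.85% of 35116 windows. The core TGACG, which every CRE holds on each strand, was present in 4 member windows, those of DUSP1, SPRED2, SPRY2 and SPRY4, and in 24.6% of all windows. In DUSP1 it occurred 4 times, 2 of them within the CRE. In SPRY4 it began at position -68, and in SPRED2 at position 31, past the start and outside the stretch shown. DUSP16 held neither. The AP-1 site TGANTCA (7.71% of all windows), the heat shock element (0.49%), the ATF4 composite site TGATGNAAT (0.991%), the CArG box (1.29%) and the ETS site CCGGAAG (10.3%) were present in 0 of the 8. A match is a description of the letters and not of a bound factor.

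DUSP1 is an immediate early nuclear phosphatase that inactivates p38 and JNK as well as ERK. Its log2 intensity was 9.05 and 8.75 in untreated cells, 11.37 and 11.46 under Y15 and 8.58 and 8.30 under PF-04554878 (probe ILMN_1781285). Both Y15 arrays stood above, and both PF-04554878 arrays below, every untreated array. The change under Y15 was 2.52 (95% interval 2.21 to 2.82, 5.72-fold, limma adjusted p = 1.4e-05), the largest rise among the members. Under PF-04554878 DUSP1 fell by 0.46 (interval -0.76 to -0.16, adjusted p = 0.016), a call lost without untreated replicate 1 (-0.30, adjusted p = 0.080) or without PF-04554878 replicate 2 (-0.32, adjusted p = 0.11). Y15 exceeded PF-04554878 by 2.98 (interval 2.67 to 3.28, 7.86-fold, adjusted p = 1.9e-06). The unscaled intensity also rose, from 1070 and 717 in untreated cells to 1611 and 1875 under Y15. With each array scaled to its median over all probes, the change under Y15 was 1.35, which still passed.

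DUSP5 is a nuclear phosphatase directed at ERK. Its level was 7.45 and 7.27 in untreated cells, 8.73 and 8.74 under Y15 and 7.05 and 7.07 under PF-04554878 (ILMN_1656501). The 3 groups did not overlap, and the order was Y15, untreated, PF-04554878, as for DUSP1. DUSP5 rose by 1.38 under Y15 (interval 1.16 to 1.59, 2.59-fold, adjusted p = 4.8e-05) and differed by 1.68 between the compounds (interval 1.46 to 1.89, adjusted p = 4.0e-06). Before normalization its intensity was 277 and 207 in untreated cells and 270 and 286 under Y15, so the unscaled values of these groups overlapped. The rise passed under every scaling and was 0.57 with median scaling over all probes and 2.21 after background correction. The fall under PF-04554878 was 0.30 (interval -0.51 to -0.09, adjusted p = 0.022). That call was lost without untreated replicate 1 (-0.18, adjusted p = 0.20), without PF-04554878 replicate 1 (-0.30, adjusted p = 0.074) and without PF-04554878 replicate 2 (-0.33, adjusted p = 0.059), and the change was 0.01 (adjusted p = 0.97) with median scaling over the tested probes.

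DUSP16 acts mainly on JNK and shuttles between nucleus and cytoplasm. Its level was 7.53 and 7.45 in untreated cells, 8.65 and 8.51 under Y15 and 7.30 and 7.43 under PF-04554878 (ILMN_1764361). Both Y15 arrays stood above all others, while the gap between untreated and PF-04554878 arrays was smaller than the spread of the latter. Y15 raised DUSP16 by 1.09 (interval 0.87 to 1.31, 2.14-fold, adjusted p = 0.00014), and its change with PF-04554878 was -0.12 (interval -0.34 to 0.10, adjusted p = 0.29). The compounds differed by 1.22 (interval 1.0 to 1.44, adjusted p = 1.9e-05), which passed under all 19 alternatives. Unscaled intensities were 302 and 249 in untreated cells and 256 and 247 under Y15. Under scaling to the median of all probes the change with Y15 was 0.24 (adjusted p = 0.073) and did not pass, lying 1.02 above the median gene, and the change under PF-04554878 was -0.73 and passed.

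DUSP10 dephosphorylates p38 and JNK. It was detected on the 2 Y15 arrays only, at 7.27 and 7.28, and its probe was not above background in untreated cells (6.84 and 6.84) or under PF-04554878 (6.74 and 6.79, ILMN_1759175). For such a probe the fold is a lower bound, the bright group's mean over the dimmest detected signal on each array of the other group, or over the probe's own value where that is higher. DUSP10 was at least 1.29-fold higher under Y15 than in untreated cells (measured difference 0.44) and at least 1.19-fold higher than under PF-04554878 (0.51). The Y15 arrays alone brought it past the detection minimum, so these are descriptions and no test is given, and without either of them it was not kept. Scaled to the median of all probes, DUSP10 changed by 0.26 under Y15, below the 1.2-fold minimum. The change was 1.28 after background correction. DUSP4, a nuclear phosphatase induced by ERK, was not detected on any array by either of its 2 probes (6.68 to 6.90) and has no test.

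**Figure D2:**
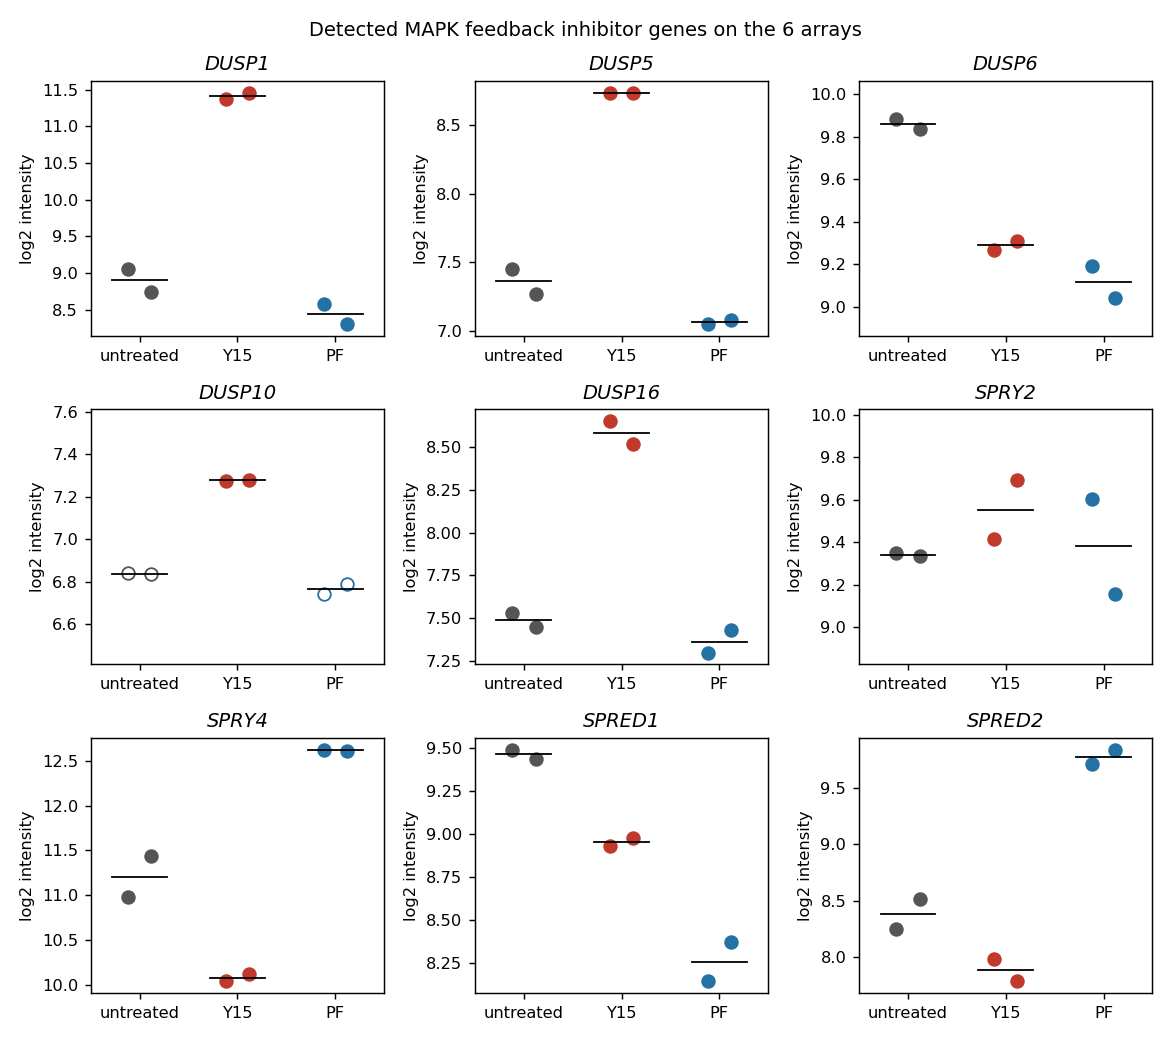
Log2 intensity after quantile normalization of each of the 9 tested members on the 6 arrays, 1 panel a gene and 1 point an array, with lines at the group means. DUSP1, DUSP5 and DUSP16 are highest on the Y15 arrays, and SPRY4 and SPRED2 on the PF-04554878 arrays. DUSP10 was kept through the Y15 arrays alone, so it had to be highest there.

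DUSP6, the cytoplasmic phosphatase specific for ERK, was the only phosphatase that fell under both compounds. Its brightest probe read 9.88 and 9.84 in untreated cells, 9.27 and 9.31 under Y15 and 9.19 and 9.04 under PF-04554878 (ILMN_2396020). Both treated groups lay below the untreated arrays and close to each other. DUSP6 fell by 0.57 under Y15 (interval -0.78 to -0.36, 0.673-fold, adjusted p = 0.0021) and with PF-04554878 by 0.74 (interval -0.95 to -0.53, 0.598-fold, adjusted p = 0.00018). The compounds differed by 0.17 (interval -0.04 to 0.38, adjusted p = 0.14). These falls kept their direction and call under every scaling.

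The dimmer DUSP6 probe read 7.68 and 7.51 in untreated cells, 6.91 and 6.92 under Y15, where it was not above background, and 7.40 and 7.22 under PF-04554878 (ILMN_1677466). It was at least 1.51-fold lower under Y15 (adjusted p = 0.0015). It fell by 0.29 under PF-04554878 (adjusted p = 0.036), a call lost with median scaling over the tested probes (-0.17), without untreated replicate 1 (-0.18), without PF-04554878 replicate 2 (-0.21) and without Y15 replicate 1 or 2 (adjusted p = 0.058 and 0.059). On this probe Y15 lay below PF-04554878, by 0.39 (at least 1.23-fold, adjusted p = 0.0096), whereas the brighter probe gave 0.17 the other way and did not pass. The difference of 0.39 was lost with either median scaling (-0.27 and -0.22) and without PF-04554878 replicate 1 (-0.33, adjusted p = 0.055), so the order of the compounds for DUSP6 is not settled by these probes.

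SPRY4, an inhibitor of receptor-driven RAS and RAF activation, had the largest spread between untreated arrays of any member with quantile normalization, 0.46. Its level was 10.98 and 11.44 in untreated cells, 10.04 and 10.13 under Y15 and 12.62 and 12.61 under PF-04554878 (ILMN_2086105). The 3 groups did not overlap, in the order PF-04554878, untreated, Y15, which is the reverse of DUSP1 and DUSP5. SPRY4 fell by 1.12 under Y15 (interval -1.45 to -0.80, 0.459-fold, adjusted p = 0.00072) and rose by 1.41 under PF-04554878 (interval 1.09 to 1.73, 2.66-fold, adjusted p = 6.0e-05). The compounds differed by -2.53 (interval -2.86 to -2.21, 0.173-fold, adjusted p = 4.0e-06). Unscaled intensities moved the same way, from 3744 and 3919 to 636 and 736 under Y15 and 7017 and 6386 under PF-04554878. The Y15 arrays were dimmer as a whole. Unscaled SPRY2, which did not pass, also fell under Y15, from 1307 and 1052 to 422 and 548. All 3 SPRY4 changes passed under all 19 alternatives.

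SPRY4 has 3 other kept probes. The brightest of these read 7.38 and 7.72 in untreated cells, 7.27 and 7.06 under Y15 and 9.0 and 8.79 under PF-04554878 (ILMN_1797596). It rose by 1.35 under PF-04554878 (adjusted p = 6.8e-05). Its change under Y15 was -0.39 (adjusted p = 0.059), and it passed as lower after background correction (-0.84, adjusted p = 0.033), with median scaling over all probes (-0.95, adjusted p = 0.00079) and without untreated replicate 1 (-0.49, adjusted p = 0.017).

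The last 2 probes of SPRY4 lay near background. One was detected on 3 arrays and was 0.39 higher under PF-04554878 (at least 1.21-fold, adjusted p = 0.0074, ILMN_1688811), a call lost with median scaling over all probes (adjusted p = 0.062) and without untreated replicate 1 (0.26, adjusted p = 0.078). Its change under Y15 was 0.15 (adjusted p = 0.26). The other was detected on the 2 PF-04554878 arrays alone, so it had to be higher there, and its difference of 0.29 (at least 1.12-fold, ILMN_1741168) is given with no test.

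**Figure D3:**
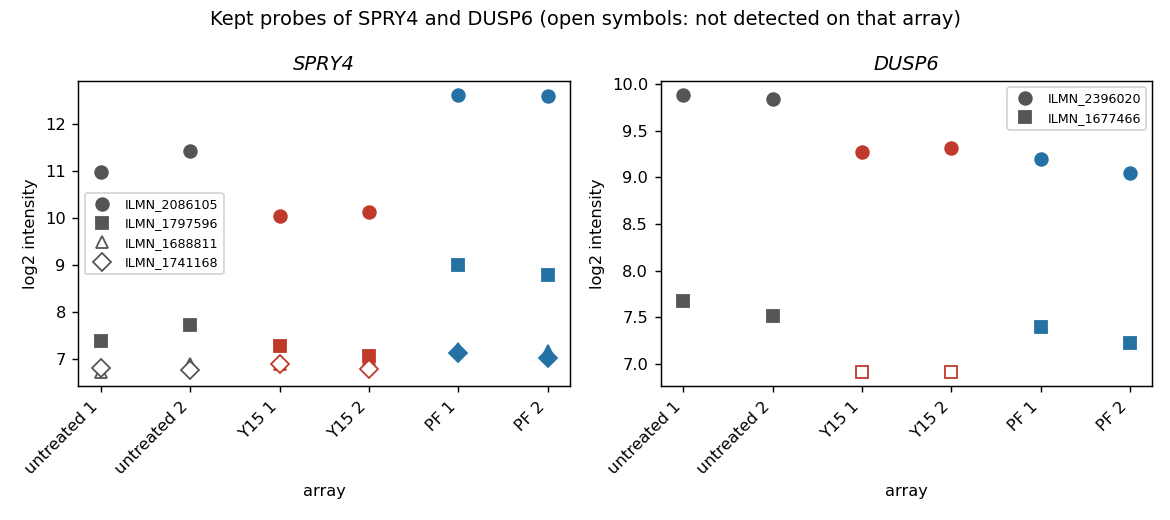
Log2 intensity after quantile normalization of the 4 kept SPRY4 probes and the 2 kept DUSP6 probes on each of the 6 arrays, with open symbols where a probe was not detected. The SPRY4 probe ILMN_1741168 was kept through the PF-04554878 arrays alone, and the other SPRY4 probes are highest on those arrays. The dimmer DUSP6 probe is not detected on the Y15 arrays, at 6.91 and 6.92.

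SPRY2, a Sprouty protein that also binds the ubiquitin ligase CBL, did not pass in any comparison. Its level was 9.35 and 9.33 in untreated cells, 9.42 and 9.69 under Y15 and 9.61 and 9.16 under PF-04554878 (ILMN_2089329). The PF-04554878 arrays lay on both sides of the untreated ones, 0.45 apart, a gap exceeded by 189 of 11388 genes in that group. Y15 shifted the mean by 0.21 (interval -0.14 to 0.56, adjusted p = 0.31) and PF-04554878 by 0.04 (interval -0.31 to 0.39, adjusted p = 0.83), and the compounds differed by 0.17 (interval -0.18 to 0.52, adjusted p = 0.36). Both changes were negative and passed, at -0.93 and -0.84, with median scaling over all probes, so no direction is given for SPRY2.

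SPRED1 and SPRED2 recruit neurofibromin, the RAS inactivator encoded by NF1, to the membrane. SPRED1 read 9.49 and 9.44 in untreated cells, 8.93 and 8.98 under Y15 and 8.14 and 8.37 under PF-04554878 (ILMN_1804277). The 3 groups did not overlap and stood in the order untreated, Y15, PF-04554878. SPRED1 fell by 1.2 under PF-04554878 (interval -1.43 to -0.97, 0.434-fold, adjusted p = 2.2e-05) and by 0.51 under Y15 (interval -0.74 to -0.28, 0.702-fold, adjusted p = 0.0055). Without Y15 replicate 1 the adjusted p under Y15 was 0.053. The compounds differed by 0.69 (interval 0.46 to 0.92, 1.62-fold, adjusted p = 0.00048).

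SPRED2 read 8.24 and 8.51 in untreated cells, 7.99 and 7.78 under Y15 and 9.71 and 9.84 under PF-04554878 (ILMN_1791232). Its order, PF-04554878, untreated, Y15, was that of SPRY4 and not that of SPRED1. SPRED2 rose by 1.40 under PF-04554878 (interval 1.12 to 1.67, 2.64-fold, adjusted p = 2.6e-05), and the compounds differed by -1.89 (interval -2.17 to -1.62, 0.269-fold, adjusted p = 7.1e-06). Both held under all 19 alternatives. Under Y15 it fell by 0.49 (interval -0.77 to -0.22, adjusted p = 0.014), a call lost without untreated replicate 2 (-0.34, adjusted p = 0.061) or without Y15 replicate 2 (-0.40, adjusted p = 0.11). Unscaled intensities were 582 and 608 in untreated cells, 174 and 160 under Y15 and 740 and 807 under PF-04554878.

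By family, and without DUSP10, 3 of 4 phosphatases were higher and 1 lower under Y15, and 0 of 4 Sprouty and SPRED genes were higher and 3 lower, beside 16.7% and 21.4% of all genes. Under PF-04554878, 0 of 4 phosphatases were higher and 3 lower, and 2 of 4 Sprouty and SPRED genes were higher and 1 lower, beside 27.2% and 35.0%. For Y15 against PF-04554878, 3 of 4 phosphatases were higher and 0 lower, and 1 Sprouty or SPRED gene was higher and 2 lower, beside 32.9% and 27.6%. The difference between the families was not tested. Over the 9 members with DUSP10, the counts under Y15 changed only with median scaling over all probes. Those under PF-04554878 changed with either median scaling. The plot of member changes under 4 scalings shows each gene. The median gene moved by -0.78 under Y15 and -0.59 under PF-04554878 with median scaling over all probes. Relative to that gene, DUSP1 was 2.13 higher, DUSP5 1.36, DUSP10 1.04 and DUSP16 1.02 higher under Y15, and SPRY4 stood at -1.34.

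**Figure D4:**
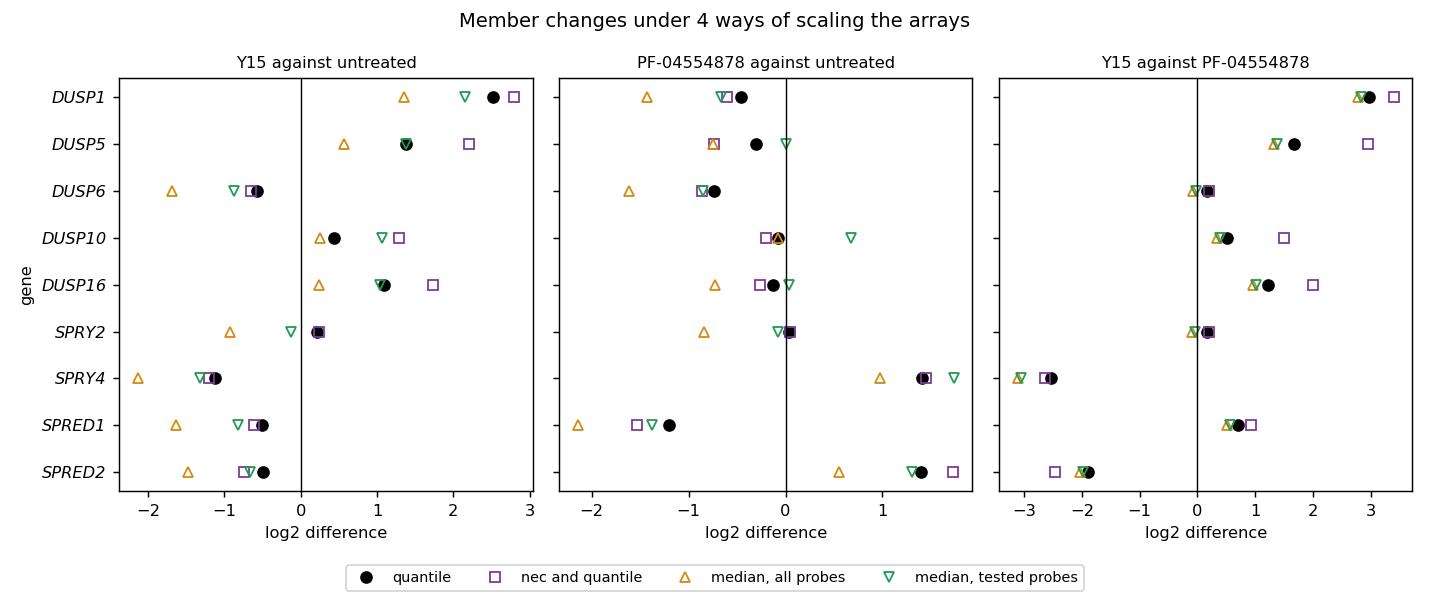
Log2 differences of the 9 members for the 3 comparisons, with quantile normalization, with background correction before it, and with each array scaled to its median over all probes or over the tested probes. DUSP16 under Y15 moves from 1.09 to 0.24 with median scaling over all probes, whereas SPRY4 between the compounds stays between -2.53 and -3.10.

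Other genes of the pathway were read from lists by role in the pathway, written with earlier results of these data known. Of 7 other phosphatases and Sprouty-type genes, 3 were tested. DUSP8, a phosphatase of p38 and JNK, read 7.06 and 7.18 in untreated cells, 8.43 and 8.72 under Y15 and 7.81 and 8.05 under PF-04554878. It rose by 1.45 under Y15 (adjusted p = 0.00014) and by 0.81 under PF-04554878 (adjusted p = 0.00073), and was 0.64 higher under Y15 than under PF-04554878 (adjusted p = 0.0028). The rise under PF-04554878 was 0.34 and did not pass with median scaling over all probes. SPRY1 fell by 0.60 under Y15 and by 0.61 under PF-04554878 (adjusted p = 0.0034 and 0.0012), from 9.64 and 9.62 in untreated cells. DUSP2, an inducible nuclear phosphatase, rose by 0.42 under Y15 (adjusted p = 0.022), but not with median scaling over all probes (-0.06), nor without untreated replicate 1 (0.38), untreated replicate 2 (0.36) or Y15 replicate 2 (0.28).

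Of 20 genes from the receptor to ERK, 11 were tested, and 1 was higher and 8 lower under Y15 than under PF-04554878, the same split under all 4 scalings, where 32.9% of all genes were higher and 27.6% lower. The shares of all genes given above for each comparison are the background of this and the following lists. RET read 12.11 and 12.38 in untreated cells, 11.36 and 11.33 under Y15 and 12.17 and 12.11 under PF-04554878. It fell by 0.90 under Y15 (adjusted p = 0.00053), its change under PF-04554878 was -0.11 (adjusted p = 0.41), and the compounds differed by -0.79 (adjusted p = 0.00032). Its other probes, ILMN_1655610 and ILMN_1666314, changed by -0.68 and -1.08 under Y15 as well, but their changes under PF-04554878 were 0.16 (adjusted p = 0.41) and 0.56 (adjusted p = 0.0085, passing as higher), so the RET probes disagree under PF-04554878. GRB2, the adaptor that carries the RAS activator SOS to receptors, rose by 1.31 under PF-04554878 (adjusted p = 1.2e-05) and was 0.95 lower under Y15 than under it. ARAF, a RAF kinase, fell by 0.76 under PF-04554878 (adjusted p = 0.00014) and was the gene higher under Y15 than under PF-04554878, by 0.73. Against untreated cells 2 genes were higher and 4 lower under Y15 and 5 higher and 2 lower under PF-04554878. With median scaling over all probes 11 were lower under Y15, and 1 was higher and 6 lower under PF-04554878. Median scaling over the tested probes gave 1 higher and 5 lower under Y15 and 8 higher and 1 lower under PF-04554878.

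Of 16 genes of the p38 and JNK chains, 12 were tested, and 3 were higher and 5 lower under Y15 than under PF-04554878. MAP3K7, the upstream kinase TAK1, read 9.19 and 9.13 in untreated cells, 9.21 and 9.23 under Y15 and 10.66 and 10.72 under PF-04554878. It rose by 1.53 under PF-04554878 (adjusted p = 3.4e-06) and was 1.47 lower under Y15 than under it (adjusted p = 4.6e-06). Its dimmer probe ILMN_2379326 rose by 0.96 under PF-04554878 but passed as lower under Y15 (-0.39, adjusted p = 0.013), where the brighter probe changed by 0.06. MAPK8, which encodes the kinase JNK1 on which DUSP1, DUSP10 and DUSP16 act, rose by 1.14 under PF-04554878 (adjusted p = 1.4e-05) and was 1.35 lower under Y15 than under it, while its change under Y15 was -0.20 (adjusted p = 0.10). The 2 genes lower under PF-04554878 were MAPK10 (-0.88, adjusted p = 0.00033) and MAPKAPK3 (-0.69, adjusted p = 0.00053). They were 0.67 and 0.64 higher under Y15 than under PF-04554878. The dimmer MAPK10 probes changed by -0.16 and -0.18 under PF-04554878 and did not pass. Against untreated cells 1 gene was higher and 2 lower under Y15 and 6 higher and 2 lower under PF-04554878. With median scaling over all probes 11 and 8 were lower. Median scaling over the tested probes gave 2 higher and 8 lower under Y15 and 5 higher and 3 lower under PF-04554878.

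Among 12 other inhibitors of RAS and RAF, 8 were tested, and 3 were higher and 3 lower under Y15 than under PF-04554878. IL17RD, known as SEF, which like the Sprouty proteins restrains receptor signaling to ERK, read 8.07 and 9.03 in untreated cells, 11.20 and 10.91 under Y15 and 9.58 and 9.72 under PF-04554878. It rose by 2.51 under Y15 (SE 0.26, adjusted p = 0.00031) and by 1.10 under PF-04554878 (adjusted p = 0.0067), the latter not passing with median scaling over all probes (0.29) or without PF-04554878 replicate 2 (adjusted p = 0.052). CBL, the ubiquitin ligase bound by SPRY2, rose by 1.38 under PF-04554878 (adjusted p = 1.6e-05) and its change under Y15 was -0.24 (adjusted p = 0.12). NF1, the partner of SPRED1 and SPRED2, read 6.82 and 7.02 in untreated cells, 6.81 and 6.98 under Y15 and 7.64 and 7.94 under PF-04554878. Its change was 0.88 under PF-04554878 (adjusted p = 0.00046) and -0.02 under Y15 (adjusted p = 0.92). The NF1 probe was detected on 1 untreated array and 1 Y15 array, so the latter value compares readings near background. Against untreated cells 3 genes were higher and 0 lower under Y15 and 4 higher and 1 lower under PF-04554878. With median scaling over all probes 1 was higher and 5 lower, and 2 higher and 4 lower. Median scaling over the tested probes gave 4 higher and 1 lower under Y15 and 5 higher and 1 lower under PF-04554878.

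Of 18 genes commonly read as ERK output, 11 were tested, and 3 were higher and 3 lower under Y15 than under PF-04554878. FOS read 7.88 and 8.12 in untreated cells, 10.26 and 10.33 under Y15 and 9.26 and 8.88 under PF-04554878. It rose by 2.30 under Y15 (adjusted p = 2.9e-05) and by 1.07 under PF-04554878 (adjusted p = 0.00025), the latter 0.26 and not passing with median scaling over all probes. CCND1, which encodes the G1 cyclin D1, read 11.56 and 12.17 in untreated cells, 11.58 and 11.59 under Y15 and 9.96 and 9.99 under PF-04554878. It fell by 1.89 under PF-04554878 (adjusted p = 3.6e-05) and its change under Y15 was -0.28 (adjusted p = 0.23). MYC fell by 0.76 under PF-04554878 (adjusted p = 0.00030) and was 1.21 higher under Y15 than under it. EGR1, an immediate early factor, was 1.06 lower under Y15 than under PF-04554878 (adjusted p = 0.0012). Against untreated cells 4 of the 11 genes were higher and 2 lower under Y15 and 5 higher and 3 lower under PF-04554878. With median scaling over all probes 1 was higher and 8 lower, and 1 higher and 6 lower. Median scaling over the tested probes gave 3 higher and 5 lower under Y15 and 5 higher and 4 lower under PF-04554878.

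**Figure D5:**
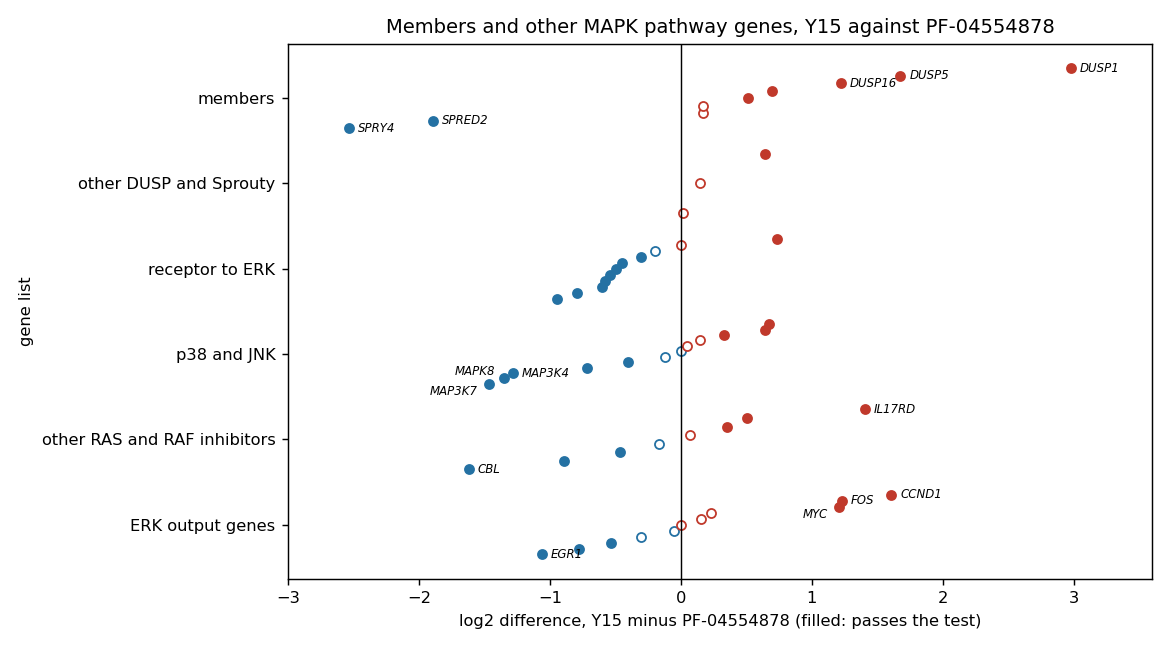
Log2 difference between Y15 and PF-04554878 for the members and 5 other lists of pathway genes, 1 point a gene, filled where the gene passed. Of the 11 tested genes from the receptor to ERK, 8 passed as lower under Y15, and the members reach from SPRY4 at -2.53 to DUSP1 at 2.98.

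The genes whose levels followed those of the most changed members were sought among 11379 others, by the root mean square distance of the log2 level, taken from the untreated mean, over the 6 arrays. Nearest to DUSP1 were DEPP1 (distance 0.18), IER5 (0.20) and SERTAD1 (0.27), which changed by 2.24, 2.45 and 2.21 under Y15 and by -0.53, -0.15 and -0.19 under PF-04554878. Nearest to SPRY4 were DICER1 (0.20), FAM83D (0.21) and FUBP3 (0.24), with -0.84, -1.12 and -0.80 under Y15 and 1.24, 1.2 and 1.28 under PF-04554878. These are descriptions over 3 groups of arrays and carry no test.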

How the data were processed

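The authors labeled total RNA of TT cells and hybridized it to Illumina BeadChips, read in GenomeStudio (its version is not given in the sources used here). HumanRef-8 is the chip named in the methods, but the deposited probe identifiers are those of HumanHT-12 v4, whose annotation was used. The authors deposited an intensity per probe, the mean over beads on a linear scale with no scaling between arrays, and a detection p-value. Their deposited value table gives log2 values after quantile normalization, with column medians of 6.81. Values recomputed here differed from it by at most 5.0e-09.

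Values were given for 47317 of 47323 listed probes. The annotation named 1 gene for 30111 probes, several for 8 and none for 17198. Log2 intensities were quantile normalized over all probes, and probes with a detection p below 0.01 on at least 2 of 6 arrays were kept (18876, of which 14939 had a gene). Group means of all 6 arrays were fitted with limma (version 3.58.1, R version 4.3.3), which had 3 residual and 5.24 prior degrees of freedom. Tests were two-sided. The median SE was 0.10. The number of arrays, 2 per group, limits the precision. Fits were tested on simulated data. No 2 arrays held identical values.

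All members were reported by rule, with up to 4 passing genes of largest change per list and comparison eligible for naming, and the 3 nearest genes to the most changed member under each compound. Members and lists were chosen with earlier results of these data known. Alternatives covered background correction, scaling, detection filter, probe or gene level, groups in the fit, prior, threshold, replicate block and leaving out each array. Promoter windows came from a RefSeq table of GRCh38.p14. Where a gene had several, the first was used.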

Additional observations from a re-analysis of the deposited data

How the results depend on the processing

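Each member's change was recomputed under 19 alternatives (16 for DUSP10). The count of members passing, DUSP10 included (8 under Y15, 6 with PF-04554878, 7 between the compounds) became 4 (3 higher and 1 lower) and 3 (2 higher and 1 lower) with a 2-fold minimum for the comparisons with untreated cells. With that minimum 4.66% and 16.5% of all genes passed. Leaving out an array left 1 array in a group, and DUSP10 was not kept without either Y15 array. No count of members is given for those fits. Calls lost other than by the 2-fold minimum are named with each gene.

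Scaling turned some directions. The median over all probes, 6.81 after normalization, lay below the dimmest detected signal of each array (6.90 to 7.04). Scaling over all probes thus set the arrays level on undetected probes. With median scaling over all probes, SPRY2 changed by -0.93 with Y15 and by -0.84 with PF-04554878, and between the compounds by -0.087, with DUSP6 at -0.072. With median scaling over the tested probes, SPRY2 stood at -0.12, -0.083 and -0.037 in the 3 comparisons, and DUSP6 between the compounds at -0.022. With that scaling DUSP5, DUSP10 and DUSP16 under PF-04554878 stood at 0.0052, 0.68 and 0.031. Of these DUSP10 passed, but its probe was not detected in either group, so that call compares background readings. Leaving out each array in turn, SPRY2 ranged from -0.18 to 0.26 under PF-04554878, negative without PF-04554878 replicate 1, and from -0.050 to 0.39 between the compounds, negative without PF-04554878 replicate 2. The cause was not tested.

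Over all genes, 1899 were higher and 2438 lower under Y15, and 3093 and 3989 under PF-04554878. Median scaling over all probes gave 386 and 9050, and 935 and 7538, while median scaling over the tested probes gave 3911 and 3349, and 5020 and 3359. Between the compounds these scalings gave 2343 and 3240, and 2930 and 3157, in place of 3751 and 3147. Without Y15 replicate 1 or 2, 20.4% and 22.0% of genes passed under Y15 in place of 38.1%, and the 2-fold minimum left 4.66% there, 16.5% for PF-04554878 and 15.5% between them.

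With the replicate number as a block, 8, 6 and 7 members passed, DUSP10 included, as without the block. Of all genes 36.4%, 61.8% and 60.3% passed with the block. Deviations of same-numbered arrays from their group means correlated at -0.28, 0.21 and -0.10 over 18876 probes, so the numbers were not read as pairs. With 2 arrays per group no outlier could be tested. DUSP4, DUSP10, the dim probes of SPRY4 and DUSP6, and NF1 in untreated and Y15-treated cells lay near background. There, signal over background limits the measured change.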
